A study of Mus musculus with 8 samples.

Results

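The mitochondrial genome contributed 37 of the 46078 rows of a hippocampal read count table, and all of them were taken by their names, which start with mt-. These are 13 protein genes, 2 rRNA genes and 22 tRNA genes. Poly(A)-selected RNA was sequenced from 4 libraries of T29-1 Cre mice and 4 of WT mice, all 9 weeks old and of the C57BL/6J strain. T29-1 Cre mice are hemizygous for Tg(Camk2a-cre)T29-1Stl, a transgene in which the Camk2a promoter, active in excitatory neurons of the forebrain, drives Cre recombinase. No floxed allele is named for either genotype, so the comparison asks which transcripts differ in carriers of the transgene itself. Nothing in the labels ties a replicate to its own animal, so every p-value here measures the spread between these libraries, which may be technical.

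Mitochondrial DNA is a small circle that is transcribed from both strands into long RNAs by the polymerase POLRMT with the factors TFAM and TFB2M. The tRNAs that lie between most genes are cut out, which releases the rRNAs and mRNAs, and the heavy-strand mRNAs then receive short poly(A) tails. The 13 proteins are core subunits of complexes I, III and IV and of the ATP synthase, which also need many subunits made from nuclear genes. Neurons depend on these complexes for most of their ATP.

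The positions below are those of chromosome M in GRCm38, from the GENCODE M21 annotation, in which all 37 genes were found. In 3 protein genes, mt-Co3, mt-Nd4 and mt-Cytb, the DNA encodes only the first base of the stop codon and the poly(A) tail supplies the rest, while the other 10 end in a complete stop codon. The last 30 bases of these 3 genes, from chrM:9361-9390, chrM:11515-11544 and chrM:15259-15288 on the plus strand, are shown beside those of mt-Co1 from chrM:6843-6872. The encoded bases of the stop codon are in capitals. The tail that poly(A) selection binds is added after these bases.
mt-Co3: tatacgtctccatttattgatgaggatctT
mt-Nd4: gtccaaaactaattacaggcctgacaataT
mt-Cytb: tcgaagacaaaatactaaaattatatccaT
mt-Co1: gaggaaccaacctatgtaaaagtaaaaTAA

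Neighbouring genes also share bases, which limits how their reads can be told apart. The largest overlap, of 43 bases, joins mt-Atp8 and mt-Atp6, and is shown in capitals in the last 60 bases of mt-Atp8 (chrM:7910-7969, plus strand). mt-Nd5 and mt-Nd6 overlap by 14 bases on opposite strands, in capitals in the last 40 bases of mt-Nd5 (chrM:13526-13565, plus strand). mt-Nd4l and mt-Nd4 share 7 bases, and the other shared stretches are of 1 to 3 bases.
mt-Atp8: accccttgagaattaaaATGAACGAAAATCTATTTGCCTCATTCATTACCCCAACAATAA
mt-Nd5: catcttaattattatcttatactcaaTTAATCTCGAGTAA

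Mitochondrial transcripts took 3.14% ± 0.12 of all counts in T29-1 Cre and 3.20% ± 0.0945 in WT (SD, n = 4 each). The libraries held 23358289 to 30882631 counts in all. By replicate number from 1 to 4 the share was 3.06%, 3.01%, 3.24% and 3.23% in T29-1 Cre, against 3.07%, 3.30%, 3.22% and 3.19% in WT. The ranges of the genotypes overlapped, and the difference of means, of -0.06 percentage points, was smaller than either SD. In bulk tissue, fewer mitochondria or cells of a type and less RNA in each cannot be told apart.

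The libraries of both genotypes carried hippocampal neuron markers. All 15 listed markers were tested, and they summed to 3480 to 3835 CPM in T29-1 Cre and 3640 to 3862 CPM in WT. CPM is a gene's count scaled to the size of its library with TMM factors. Of the markers of other sources, blood cell genes summed to 29.9 to 47.6 CPM in T29-1 Cre and 34.5 to 62.0 CPM in WT, and choroid plexus genes to 28.6 to 55.9 CPM in T29-1 Cre and 25.4 to 30.7 CPM in WT. Kl, at 19.8 to 22.5 CPM in every library, took much of the choroid plexus sums. Ttr had 3.89, 11.5, 26.9 and 2.81 CPM in T29-1 Cre, against 1.08, 1.45, 4.37 and 1.42 CPM in WT. Its log2 fold change was 2.39 (SE 0.633, edgeR adjusted p = 0.998). All 5 tested choroid plexus genes had a higher value in T29-1 Cre, with 0 called. Along the first principal component of expression WT replicate 4 was at -33.4 and the other 7 libraries at -0.69 to 8.74, and values without this library are given beside the results that it moved most.

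By read counts, the mitochondrial genes fell into a high and a low class that cut across the respiratory complexes. mt-Co1 was the most abundant of all tested rows of the table. It had 10749 ± 528 CPM in T29-1 Cre and 10781 ± 421 CPM in WT (SD, n = 4 each), and encodes the catalytic core of cytochrome c oxidase, complex IV. The 8 genes with at least 10000 counts in every library were mt-Co1, mt-Cytb, mt-Nd1, mt-Nd2, mt-Nd4, mt-Nd5, mt-Rnr1 and mt-Rnr2, and they held at least 99.6% of the mitochondrial counts in each library. 6 protein genes had under 500 counts in every library, namely mt-Co2, mt-Co3, mt-Atp6, mt-Atp8, mt-Nd3 and mt-Nd4l. mt-Nd6, the single protein gene of the light strand, lay between these classes with 1001 to 1559 counts.

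Levels were compared per kb of gene. mt-Co1 had 6957 ± 342 CPM per kb in T29-1 Cre and 6978 ± 272 in WT, and its partners in the same complex were far lower. The mt-Co2 gene had 8.76 ± 0.768 CPM per kb in T29-1 Cre and 9.73 ± 1.78 in WT, and mt-Co3 8.47 ± 0.7 in T29-1 Cre and 9.00 ± 2.72 in WT (SD, n = 4 each). Complex III is represented by mt-Cytb alone, the cytochrome b gene, at 3665.5 ± 283 CPM per kb in T29-1 Cre and 3788 ± 48.0 in WT (SD, n = 4 each). Both genes of the ATP synthase were low, with mt-Atp6 at 11.3 ± 2.12 CPM per kb in T29-1 Cre and 11.6 ± 2.04 in WT, and mt-Atp8 at 1.07 ± 0.792 in T29-1 Cre and 1.55 ± 0.55 in WT (SD, n = 4 each). The 7 subunits of the membrane arm of complex I lay in both classes. mt-Nd1 was at 3339 ± 211 CPM per kb in T29-1 Cre and 3442 ± 91.8 in WT, while mt-Nd4l was at 7.66 ± 1.95 in T29-1 Cre and 7.35 ± 1.68 in WT (SD, n = 4 each).

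Over all 8 libraries the order of levels per kb was mt-Co1, mt-Cytb, mt-Nd1, mt-Rnr2, mt-Nd2, mt-Rnr1, mt-Nd5, mt-Nd4, mt-Nd6, mt-Nd3, mt-Atp6, mt-Co2, mt-Co3, mt-Nd4l and mt-Atp8. Their ranges over the libraries did not touch between mt-Co1 and mt-Cytb, between mt-Nd1 and mt-Rnr2, between mt-Nd4 and mt-Nd6, between mt-Nd6 and mt-Nd3, between mt-Nd3 and mt-Atp6, or between mt-Nd4l and mt-Atp8. mt-Rnr2 and mt-Nd2 did not separate, since mt-Rnr2 was the higher in 3 of 8 libraries, and neither did mt-Rnr1 and mt-Nd5, with mt-Rnr1 higher in 3 of 8. mt-Co2 was above mt-Co3, and mt-Co3 above mt-Nd4l, in 5 of 8 libraries each. The longest step between neighbours was that from mt-Nd4 to mt-Nd6, at 16.4-fold. This order takes the full length of each gene and depends on that measure, since parts of some genes are copied in nuclear transcripts, as described below.

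**Figure D1:**
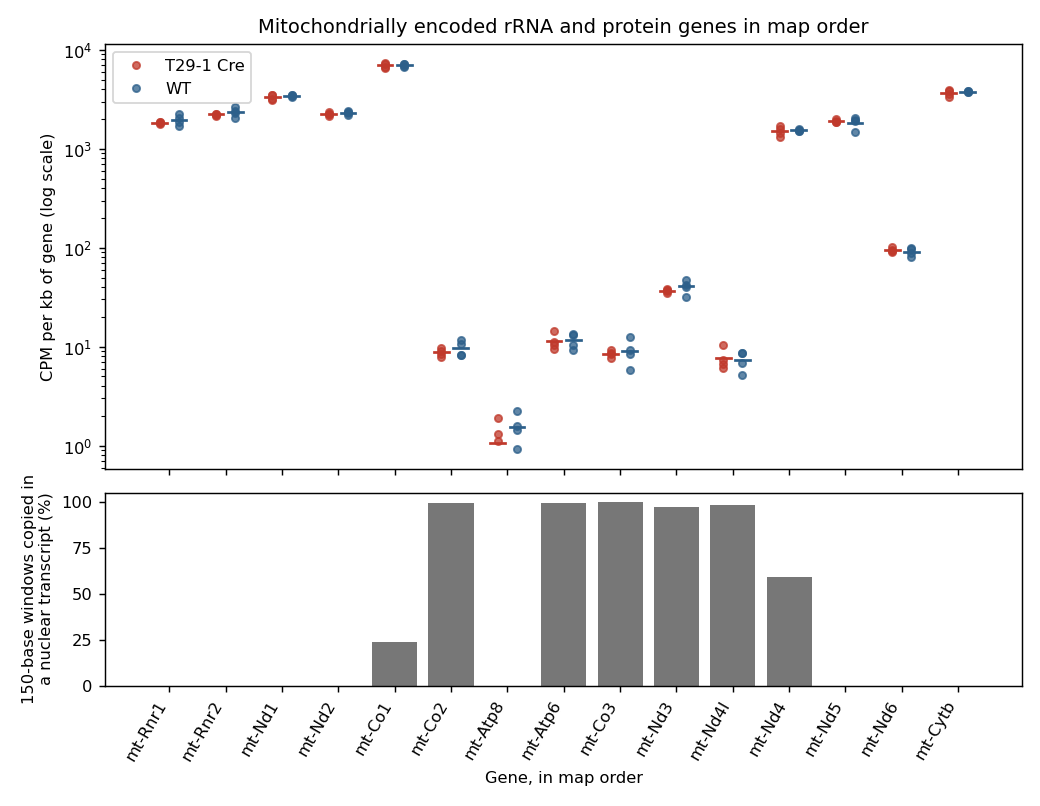
Upper panel: CPM per kb of gene on a log scale for the 15 rRNA and protein genes in map order, with 1 point per library and a bar at the mean of 4 (T29-1 Cre left, WT right; the T29-1 Cre library with 0 counts of mt-Atp8 has no point but enters the mean). Lower panel: percent of each gene's 150-base windows with an identical stretch in a GENCODE M21 transcript of a nuclear gene; the bars reach 97.0% or more for mt-Co2, mt-Atp6, mt-Co3, mt-Nd3 and mt-Nd4l.

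5 of the 6 low protein genes, all but mt-Atp8, are copied almost base for base in nuclear transcripts. Stretches of mitochondrial DNA have entered nuclear chromosomes, where they are annotated as pseudogenes, and reads from identical stretches have no single place of origin. A search of the GENCODE M21 transcripts for matches of at least 200 bases at 95% identity or more found 11 nuclear copies of 9 mitochondrial genes, all 11 with a row in the count table. 7 of these are consecutive pseudogenes on the minus strand of chromosome 1, from chr1:24611535-24616197 in GRCm38, a span of 4663 bases. In the direction of transcription they are Gm29216 (a copy of part of mt-Co1), Gm28661 (mt-Co2), Gm10925 (mt-Atp6), Gm28437 (mt-Co3), Gm28438 (mt-Nd3), Gm10222 (mt-Nd4l) and Gm28439 (part of mt-Nd4).

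The copies keep the order of the mitochondrial genes and, in 5 of 6 cases, the exact number of bases between them. Between Gm28661 and Gm10925 there are 233 bases, as there are between the matching bases of mt-Co2 and mt-Atp6, the stretch that holds mt-Tk and most of mt-Atp8. This spacer has no annotated transcript, so that mt-Atp8 counted as uncopied in the search. Between Gm28438 and Gm10222 there are 74 bases, against 73 in the mitochondrial genome.

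The first 120 bases of mt-Co2 (chrM:7013-7132, plus strand) are printed with those of Gm28661 (chr1:24615446-24615565, minus strand) and of a second copy, Gm13341 (chr2:22587843-22587962, minus strand), since they show what separates a read of the gene from a read of a copy. Capitals in mt-Co2 and Gm13341 mark the bases in which these 2 differ, C25T and G57A, counted from the first base of mt-Co2 with the base of mt-Co2 given first. Gm28661 has no difference from mt-Co2 over its 681 bases.
mt-Co2: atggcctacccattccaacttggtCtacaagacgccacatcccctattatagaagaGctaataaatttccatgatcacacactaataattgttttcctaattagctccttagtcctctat
Gm28661: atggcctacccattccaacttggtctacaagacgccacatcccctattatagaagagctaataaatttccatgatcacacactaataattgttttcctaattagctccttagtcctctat
Gm13341: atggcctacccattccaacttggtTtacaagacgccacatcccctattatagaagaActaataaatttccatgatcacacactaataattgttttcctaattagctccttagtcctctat

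mt-Nd3 differs from Gm28438 at 1 of 345 bases, T3C, in its first codon. The first 60 bases are printed from chrM:9459-9518 on the plus strand and chr1:24613060-24613119 on the minus strand, with that base in capitals.
mt-Nd3: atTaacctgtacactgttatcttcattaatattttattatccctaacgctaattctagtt
Gm28438: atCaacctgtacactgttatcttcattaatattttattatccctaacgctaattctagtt

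Most genes with a high share of copied bases were low per kb, and the lowest gene, mt-Atp8, could not be judged by this search. Reads were 150 bases long, so each gene was divided into all its windows of 150 bases, and a window was called copied if a nuclear transcript held it exactly. Copied windows made up 99.4% of mt-Co2, 99.4% of mt-Atp6, 99.8% of mt-Co3, 98.0% of mt-Nd4l and 97.0% of mt-Nd3, the 5 genes at 7.51 to 38.6 CPM per kb. They made up 59.2% of mt-Nd4, at 1530 CPM per kb, and 23.6% of mt-Co1, the highest gene at 6968 CPM per kb. Per 1000 uncopied windows, mt-Nd4 had 4157 ± 450 CPM in T29-1 Cre and 4244 ± 112 in WT (SD, n = 4 each). By that measure mt-Nd1 had 3955 ± 250 in T29-1 Cre and 4076 ± 109 in WT, so the place of mt-Nd4 in the order depends on the measure. The division into a high and a low class depends on it too. Per 1000 uncopied windows, the WT means were 2219 CPM for mt-Co2, 2622 for mt-Atp6, 7058 for mt-Co3, 2355 for mt-Nd3 and 728 for mt-Nd4l. These 5 values rest on only 1 to 6 uncopied windows per gene. mt-Atp8 stayed low by this measure, at 5.74 CPM in WT. No copied window was found in mt-Rnr1, mt-Rnr2, mt-Nd1, mt-Nd2, mt-Nd5 and mt-Cytb, at 1871 to 3727 CPM per kb. None was found either in mt-Nd6, at 93.3 CPM per kb, or in mt-Atp8, the lowest gene at 1.31 CPM per kb. For mt-Atp8 the search could not have found one in the chromosome 1 block, since the spacer at its place has no transcript and was not searched. How the authors' counting treated reads with several places of origin is not given in the sources used here, and its part in these levels was not tested.

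For 3 of the low genes, the nuclear copy had more reads than the mitochondrial gene in every library. mt-Co2 held 163, 134, 150 and 177 counts in T29-1 Cre and 150, 182, 173 and 192 in WT, while Gm28661 held 292, 242, 277 and 307 in T29-1 Cre and 295, 265, 319 and 405 in WT. The ratio of gene to copy was 0.474 to 0.687 for mt-Co2, 0.319 to 0.559 for mt-Atp6 and 0.387 to 0.649 for mt-Co3. For mt-Nd4l it was 1.00 to 1.92. mt-Nd3 had 14.6 to 46.0 counts for every count of its copy, and the part of its 1 differing base in this ratio was not tested. Values of these 5 genes and of their copies are therefore uncertain as measures of either transcript.

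**Figure D2:**
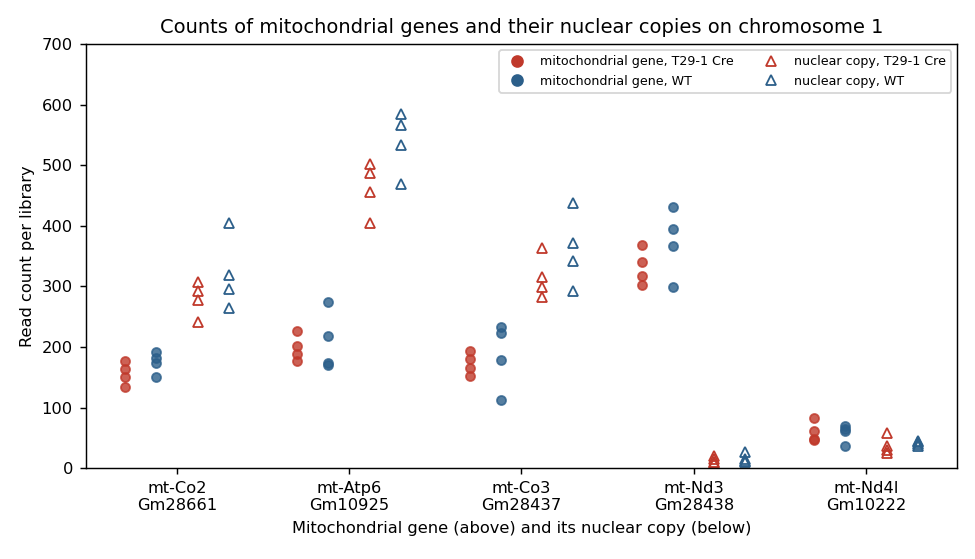
Read counts per library of 5 mitochondrial genes (filled circles) and of their copies on chromosome 1 (open triangles), with T29-1 Cre left of WT within each kind. The triangles lie above the circles for mt-Co2, mt-Atp6 and mt-Co3 and below them for mt-Nd3, where the copy had 8 to 27 counts.

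Between the genotypes, no mitochondrially encoded gene differed past the threshold. Of the 37 genes, 22 passed the filter on low counts: 12 protein genes, both rRNA genes and 8 tRNA genes. edgeR's quasi-likelihood test called 0 of these 22 at a Benjamini-Hochberg adjusted p under 0.05 over all rows, where it called 0.00625% of the 15996 rows tested (1 row). At an unadjusted p under 0.05 there was 1 of 22, against 2.43% of all rows. DESeq2 and limma-voom also called 0 of 22, with 0 and 1 at an unadjusted p under 0.05. Of the 22, 15 had a lower and 7 a higher value in T29-1 Cre, with a median log2 fold change of -0.04. Over all tested rows 50.3% had a lower value and the median was 0.00.

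The intervals were narrow for the abundant genes. The 95% interval of the fold change lay within 1.25-fold in either direction for 10 of 22 genes and within 1.5-fold for 19 of 22, with mt-Ti, mt-Te and mt-Tt, which had 11 to 46 counts per library, outside. The log2 fold change of mt-Co1 was -0.00 (SE 0.0505), and its fold interval ran from 0.925 to 1.07. In the authors' deposited table, which lists 26 mitochondrial genes, the lowest unadjusted p was 0.0582, for mt-Tl1.

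**Figure D3:**
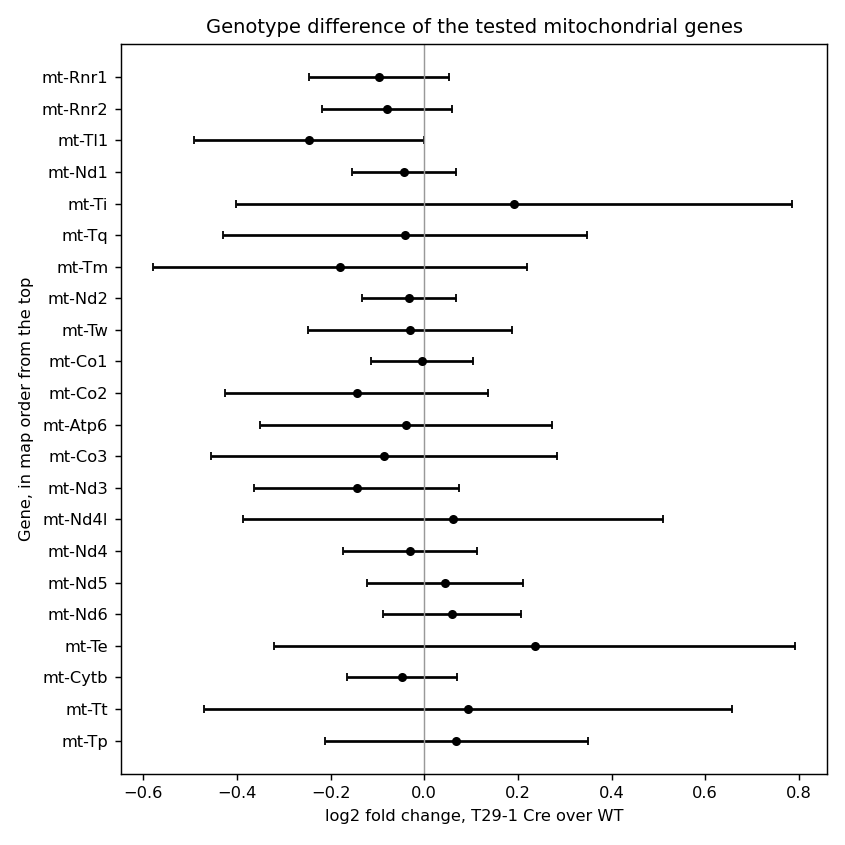
log2 fold change of T29-1 Cre over WT (points) with its 95% interval (bars) from edgeR's quasi-likelihood fit for the 22 tested mitochondrial genes, in map order from the top. The intervals reach 0 or cross it except for mt-Tl1, whose upper end is just below 0, and are widest for mt-Ti, mt-Te and mt-Tt.

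Complex I genes had small values in both directions. mt-Nd1 had 2968, 3084, 3378 and 3352 CPM in T29-1 Cre, against 3180, 3328, 3387 and 3280 CPM in WT. The groups overlapped throughout, and the log2 fold change was -0.04 (SE 0.0516). mt-Nd2 was at -0.03 (SE 0.0466), mt-Nd4 at -0.03 (SE 0.0664) and mt-Nd3 at -0.14 (SE 0.102), while mt-Nd4l was at 0.06 (SE 0.209), mt-Nd5 at 0.04 (SE 0.0778) and mt-Nd6 at 0.06 (SE 0.0685). These subunits form the proton-pumping arm of the enzyme that oxidises NADH. Each of the 7 had an edgeR adjusted p of 0.998. Without WT replicate 4, the log2 fold changes were -0.06 for mt-Nd3, -0.06 for mt-Nd4l and 0.00 for mt-Nd6.

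Among the other complexes, mt-Cytb had 3804, 4073, 4354 and 4543 CPM in T29-1 Cre, against 4305, 4387, 4372 and 4271 CPM in WT. T29-1 Cre replicates 1 and 2 lay below all WT libraries and replicate 4 above them, and the log2 fold change was -0.05 (SE 0.0548). For the copied genes mt-Co2, mt-Co3 and mt-Atp6 the log2 fold changes were -0.14 (SE 0.131), -0.09 (SE 0.172) and -0.04 (SE 0.145). Without WT replicate 4 they were -0.04, 0.10 and 0.03. mt-Atp8, with at most 11 counts in a library, did not pass the filter. In complexes III and IV and the ATP synthase, 0 of the 5 tested genes passed the test.

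Of the nuclear copies, 8 were tested and 0 called, and their log2 fold changes rested largely on WT replicate 4. All 8 were negative with it, with a median of -0.19, while without it 6 of 8 were negative and the median was -0.05. Gm10925, the copy of mt-Atp6, had 17.7 ± 0.522 CPM in T29-1 Cre and 20.4 ± 2.71 CPM in WT (SD, n = 4 each), with groups that did not overlap, as in 1.81% of all tested rows. Its log2 fold change was -0.20 (SE 0.0843, edgeR adjusted p = 0.998), and -0.11 (SE 0.0599) without WT replicate 4. Gm28437, Gm28661 and Gm28439 were at -0.18 (SE 0.129), -0.19 (SE 0.137) and -0.08 (SE 0.11), and at -0.01, 0.00 and -0.04 without it.

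The rRNA genes encode the RNAs of the small (mt-Rnr1) and large (mt-Rnr2) subunits of the mitochondrial ribosome. mt-Rnr1 had 1790, 1695, 1759 and 1768 CPM in T29-1 Cre, against 1625, 1941, 1787 and 2144 CPM in WT. The WT libraries spread on both sides of the T29-1 Cre range, and the log2 fold change was -0.10 (SE 0.0699). For mt-Rnr2 it was -0.08 (SE 0.0643). Each had an edgeR adjusted p of 0.998, and without WT replicate 4 their log2 fold changes were -0.03 and -0.02. The counts of mt-Rnr2 and mt-Rnr1 kept a nearly fixed ratio, of 2.01 ± 0.0285 in T29-1 Cre and 1.99 ± 0.0397 in WT (SD, n = 4 each). Per kb of gene this was 1.21 ± 0.0172 in T29-1 Cre and 1.20 ± 0.024 in WT (SD, n = 4 each).

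Set against the mRNAs, rRNA counts were 0.202 ± 0.011 of the protein gene counts in T29-1 Cre and 0.212 ± 0.0274 in WT (SD, n = 4 each). By replicate the ratio was 0.217, 0.203, 0.199 and 0.190 in T29-1 Cre, against 0.189, 0.210, 0.200 and 0.251 in WT. WT replicate 4 was above all other libraries, and the other 7 overlapped. Since rRNAs carry shorter tails than mRNAs, if any, and the RNA was poly(A)-selected, this is a ratio within these libraries and not within the organelle.

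The tRNA genes, at 59 to 75 bases, are shorter than a read. Together they held 529 to 824 counts per library, or 0.0763% ± 0.0044 of the mitochondrial counts in T29-1 Cre and 0.0763% ± 0.00609 in WT (SD, n = 4 each). The 6 with the highest levels were mt-Tw, mt-Tl1, mt-Tp, mt-Tq, mt-Tm and mt-Tt, the tRNAs for tryptophan, leucine, proline, glutamine, methionine and threonine. Of these, mt-Tp and mt-Tq are read from the light strand. 3 tRNA genes, mt-Tf, mt-Td and mt-Tk, had 0 counts in every library. For a library taken alone this allows up to 3 expected counts of each among the reads that were assigned to genes, and the libraries together allow fewer. mt-Td and mt-Tk lie at the places of the 140-base and 233-base spacers of the chromosome 1 block. These spacers were not searched for copies, and their part in the 0 counts was not tested. The 0 counts say nothing of the mature tRNAs, since these lack a poly(A) tail.

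The surroundings of the 2 leading tRNAs are shown because reads of their neighbours can reach into them. mt-Tl1 lies between mt-Rnr2 and mt-Nd1 with no base between them, and is printed in capitals from chrM:2656-2770, plus strand, with 20 bases of each neighbour. mt-Tw shares its first 2 bases with the end of mt-Nd2, and is printed in capitals from chrM:4930-5016, plus strand, after 20 bases of mt-Nd2. Such a place is not particular to them: mt-Tv, which fills the bases between mt-Rnr1 and mt-Rnr2, had 0 to 4 counts per library.
mt-Tl1: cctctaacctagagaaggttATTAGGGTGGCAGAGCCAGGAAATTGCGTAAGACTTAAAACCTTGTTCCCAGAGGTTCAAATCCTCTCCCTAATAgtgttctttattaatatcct
mt-Tw: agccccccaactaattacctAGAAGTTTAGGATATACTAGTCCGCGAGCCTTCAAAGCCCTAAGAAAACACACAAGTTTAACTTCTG

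mt-Tl1 was the single member whose groups did not overlap, 1 of 22 against 1.81% of all tested rows. It had 4.42, 4.86, 3.86 and 4.16 CPM in T29-1 Cre, against 4.90, 4.88, 5.68 and 4.97 CPM in WT. All T29-1 Cre libraries lay below all WT libraries, T29-1 Cre replicate 2 by a narrow margin. The log2 fold change was -0.25 (SE 0.114, 95% interval -0.49 to -0.00) with an edgeR adjusted p of 0.998, so it did not pass the test. These values rest on 107 to 174 counts per library. mt-Tw, the tRNA gene with the most counts, had 8.57, 7.83, 7.69 and 8.36 CPM in T29-1 Cre, against 6.88, 8.31, 9.24 and 8.69 CPM in WT, with overlapping groups and a log2 fold change of -0.03 (SE 0.101).

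mt-Nd6, the light-strand protein gene, overlaps mt-Nd5 at its end. It had 49.8, 46.6, 52.6 and 48.6 CPM in T29-1 Cre, against 45.5, 51.5, 50.9 and 41.8 CPM in WT. Per kb, mt-Nd5 on the opposite strand was 19.997 ± 1.16 times as high in T29-1 Cre and 20.2 ± 1.64 times in WT (SD, n = 4 each). In human cells the ND6 mRNA is known to lack a poly(A) tail, and the part of this in the levels here was not tested. Of the tRNAs, the 14 on the heavy strand held 0.0525% ± 0.00425 of the mitochondrial counts in T29-1 Cre and 0.0538% ± 0.00378 in WT, and the 8 on the light strand 0.0239% ± 0.00108 in T29-1 Cre and 0.0226% ± 0.00244 in WT (SD, n = 4 each). The strand setting of the counting is not given in the sources used here. Whether the counts of a gene hold reads of the opposite strand is therefore not known.

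The division of mitochondrial reads among the complexes overlapped between the genotypes in each case. Complex I genes took 35.5% ± 0.345 in T29-1 Cre and 35.1% ± 1.58 in WT (SD, n = 4 each). Complex IV genes took 34.3% ± 0.251 in T29-1 Cre and 33.7% ± 0.388 in WT, nearly all of it from mt-Co1. Complex III took 13.3% ± 0.5 in T29-1 Cre and 13.6% ± 0.26 in WT, and the ATP synthase 0.0253% ± 0.00598 in T29-1 Cre and 0.0256% ± 0.00452 in WT. The rRNAs took the remaining 16.8% ± 0.761 in T29-1 Cre and 17.5% ± 1.84 in WT apart from the tRNA share. Without WT replicate 4, the WT mean was 35.8% ± 0.776 (SD) for complex I and 16.6% ± 0.743 for the rRNAs. Both then lay on the other side of the T29-1 Cre mean. The copied genes mt-Co2, mt-Co3 and mt-Atp6 enter these shares with the counts given above.

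Spread between libraries was larger for some members than for others. Among genes with at least 1000 counts in every library, mt-Co1 and mt-Nd2 varied least, over 0.15 log2 units each from the lowest to the highest library, and mt-Nd5 most, over 0.44. The biological coefficient of variation from edgeR, the estimated relative spread between libraries beyond counting, had a median of 0.0644 for the 8 mitochondrial genes at 1000 CPM or more and of 0.0573 for the 78 other rows at such levels. The lowest and highest of the 8 were 0.0527 (mt-Nd2) and 0.0813 (mt-Nd5), within the range of 0.0488 to 0.106 of the other rows.

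WT replicate 4 had a pattern of its own. Relative to the mean of all libraries, its log2 CPM was higher by 0.25 for mt-Rnr1 and by 0.22 for mt-Rnr2, and lower by values of -0.32 for mt-Nd5 and -0.21 for mt-Nd6, with mt-Nd1 at 0.02, mt-Cytb at 0.00 and mt-Co1 at -0.03. mt-Nd5 had 3372, 3393, 3474 and 3622 CPM in T29-1 Cre, against 3548, 3480, 3698 and 2719 CPM in WT. The last WT value stood below the other 7, and without it the log2 fold change of mt-Nd5 was -0.04, in place of 0.04. The ratio of mt-Nd5 to mt-Nd1 counts was 1.14, 1.10, 1.03 and 1.08 in T29-1 Cre, against 1.12, 1.05, 1.09 and 0.83 in WT. Without WT replicate 4, the log2 ratio of rRNA to protein gene counts was higher in T29-1 Cre by 0.02, and with it lower by a value of -0.06.

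Some other RNAs stood apart in this library as well. Astrocyte markers summed to 5231 to 5433 CPM in T29-1 Cre and 4319 to 5441 CPM in WT, the lowest value being that of WT replicate 4. Slc1a2, the astrocytic glutamate transporter and the largest member of this sum, had 2166 CPM there and 3009 to 3153 CPM in the other libraries. The astrocyte markers did not move together. Slc1a3, Aqp4 and Gja1 were also lowest in WT replicate 4, but Aldoc and Aldh1l1 were highest there. Gfap and Fgfr3 lay within the range of the other libraries. The nuclear copies on chromosome 1 that were tested had a median deviation of 0.49 there, against -0.17 to 0.02 in the other libraries. Small RNAs made without poly(A) tails, such as Rn7sk and Rmrp, summed to 0.675 to 1.37 CPM in T29-1 Cre and 0.816 to 1.63 CPM in WT. The highest value was that of WT replicate 4, but WT replicate 1 had 1.38 CPM, and such levels are near the floor. Of 16 such genes listed, 14 were in the table and 1, Rn7sk, was tested. Rn7sk did not set this library apart, with 0.669 CPM in WT replicate 4 and 0.645 CPM in T29-1 Cre replicate 2. The part of these in the pattern of the mitochondrial genes was not tested.

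**Figure D4:**
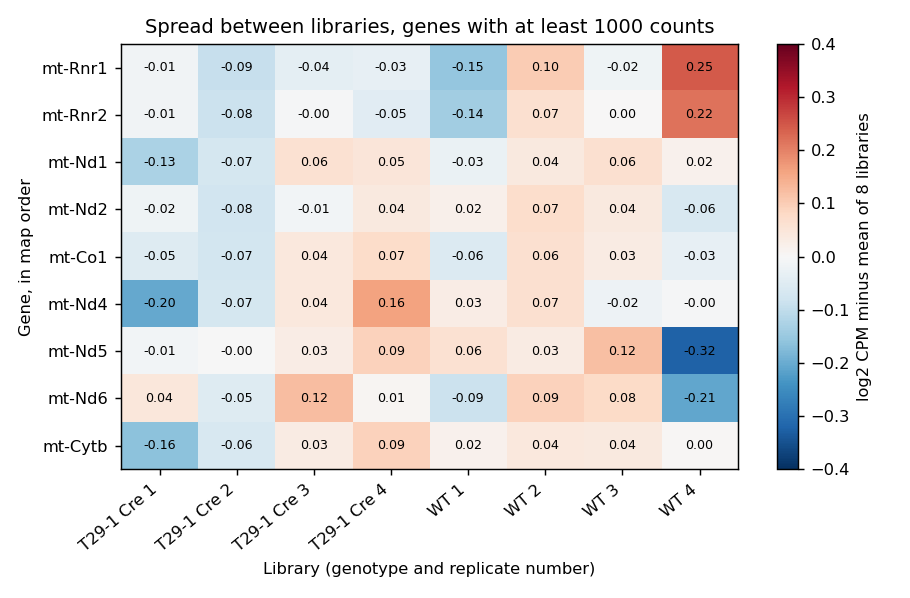
log2 CPM of the 9 mitochondrial genes with at least 1000 counts in every library, minus each gene's mean over the 8 libraries (colour and printed value), with libraries across and genes in map order down. WT replicate 4 holds both the highest values, for mt-Rnr1 and mt-Rnr2, and the lowest, for mt-Nd5 and mt-Nd6.

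Nuclear genes of the same enzyme complexes deviated in WT replicate 4 in their own way. The median deviation of the listed nuclear subunits there was 0.20 for complex I, 0.17 for complex III, 0.25 for complex IV and 0.21 for the ATP synthase. The 7 protein genes of the mitochondrial genome with at least 1000 counts had a median of -0.03 in the same library. Between the genotypes, 0 of 14, 7, 9 and 10 nuclear subunits of complexes I, III, IV and the ATP synthase were called, with median log2 fold changes of -0.05, -0.06, -0.07 and -0.06 and 13, 7, 9 and 9 of them lower in T29-1 Cre. These counts rested on WT replicate 4: without it, 7, 5, 5 and 2 of them were lower, and the medians were 0.00, -0.02, -0.00 and 0.01. With all libraries, those with the smallest p were Ndufa2 and Ndufb8 of complex I, at log2 fold changes of -0.17 (SE 0.0776) and -0.12 (SE 0.0657), and Uqcrh and Uqcrfs1 of complex III, at -0.13 (SE 0.0658) and -0.08 (SE 0.0563). Cox4i1 and Cox5b of complex IV were at -0.12 (SE 0.0761) and -0.09 (SE 0.0676), and Atp5l and Atp5g3 of the ATP synthase at -0.14 (SE 0.0889) and -0.08 (SE 0.0526). Without WT replicate 4, these 8 genes were at -0.08 (Ndufa2) to -0.02 (Cox5b).

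The nuclear genes that make and handle mitochondrial RNA were examined as 4 lists, and 0 of their tested members were called in either direction. Of 17 tested genes of transcription and DNA maintenance, 8 had a higher and 9 a lower value (median log2 fold change -0.02); without WT replicate 4, 11 were higher and 6 lower (median 0.02). Polg2, the accessory subunit of the mitochondrial DNA polymerase, had 2.45 ± 0.394 CPM in T29-1 Cre and 3.34 ± 0.462 CPM in WT (SD, n = 4 each). Its groups did not overlap, 1 of 17 in this list against 1.81% of all tested rows. The log2 fold change of Polg2 was -0.44 (SE 0.158) with an edgeR adjusted p of 0.998, and -0.38 (SE 0.166) without WT replicate 4. Mterf1b, of the transcription terminator family, was at -0.32 (SE 0.177).

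Of 18 genes of RNA processing and stability, 7 had a higher and 11 a lower value (median -0.01), with Hsd17b10, a subunit of the mitochondrial RNase P, at -0.11 (SE 0.0869) and Supv3l1, an RNA helicase of the degradosome, at 0.08 (SE 0.0609). Of 17 genes of RNA modification, 5 were higher and 12 lower (median -0.03), and without WT replicate 4 the counts were 9 and 8. Here Mettl15, a methyltransferase of the small rRNA, was at -0.20 (SE 0.107) and Rpusd3, a pseudouridine synthase family member, at -0.16 (SE 0.11). The groups of Mettl15 did not overlap, 1 of 17 against 1.81% of all tested rows, and without WT replicate 4 it was at -0.21 (SE 0.116). Of 13 translation factors, 7 were higher and 6 lower (median 0.01), with Mtrf1l, a release factor, at 0.12 (SE 0.0955) and Gfm1, an elongation factor, at 0.06 (SE 0.0568). Among 16 genes listed as measures of mitochondrial mass, 4 were higher and 12 lower (median -0.03), or 7 and 9 without WT replicate 4. Tomm40, the import pore, was at -0.08 (SE 0.0503) and Phb, prohibitin, at -0.09 (SE 0.068). Without WT replicate 4, Hsd17b10 was at -0.06, Rpusd3 at -0.08 and Phb at -0.02.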

How the data were processed

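Per the labels' protocols, hippocampal RNA was extracted with Isogen II reagent, and 500 ng per sample was enriched for poly(A) RNA and made into directional libraries, read in pairs of 150 bases. The submitters' processing notes name STAR 2.6.1d, featureCounts, edgeR 3.11 and the build GRCm38. The sources used here do not give the strand setting or the rule for multi-mapping reads. The authors deposited raw read counts per gene name for 8 libraries, and 0 columns of samples were left unused. They also deposited a comparison table with a log2 fold change, mean log2 CPM, mean CPM, an unadjusted p-value and a signed fold change, treated as a score because falls are written below 0.

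Counts were analysed in R 4.3.3 with edgeR 4.0.16: filterByExpr with a minimum count of 10 and a total of 15, TMM, the quasi-likelihood F test without covariates, and Benjamini-Hochberg adjustment over all tested rows, with 0.05 as threshold. A standard error is the size of the log2 fold change over the square root of F, and log2 CPM used a prior count of 2. Alternatives were DESeq2 1.42.0, limma 3.58.1, other scalings and filters, a replicate block, and each library left out. Same-numbered libraries of the genotypes had correlations of deviations between -0.0962 and 0.152, which gave no sign of a pairing by number but cannot exclude one. Chi-square per degree of freedom between libraries of a genotype was 3.32 to 19.2, so none looked like a repeat of another. Copies were searched with BLAST 2.17.0 among GENCODE M21 transcripts (GRCm38), which also gave positions and sequences; spacers without a transcript were not searched. Scripts were tested on simulated data.

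Members and gene lists were chosen with earlier results of these data known. All rRNA and protein genes are named, the 6 leading tRNA genes, the 4 leading nuclear copies, and in each described list the pair of genes with the smallest p. mt-Ti, mt-Te, the tRNA genes at 0, the other copies, mt-Tv, the astrocyte markers with Slc1a2, Ttr, Kl and Rmrp were named after their values were seen.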

Additional observations from a re-analysis of the deposited data

Results flagged for a closer look

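In each genotype, 28 measures (log2 CPM of the 22 tested mitochondrial genes and 6 shares and ratios) were searched for 1 library that lay far from the remaining 3. Of 56 groups, 1 held such a library, where chance gives about 1 in 20. It was mt-Tl1 in WT replicate 3, at 2.52 log2 CPM with the other WT libraries at 2.31 to 2.34. Without this library the log2 fold change of mt-Tl1 was -0.19.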

How the results depend on the processing

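The count of called mitochondrial genes was 0 under all 17 alternatives, and the smallest adjusted p of any of the 22 tested genes was 0.892. Over all rows 1 gene was called, but 2 with no filter on low counts and 2 with the replicate number as a block (replicate block); the cause was not tested. The block changed no call among mitochondrial genes. Of 372 pairs of mitochondrial gene and alternative, 355 kept their direction and 17, in 10 genes, turned, all with 1 library left out. The log2 fold change with a library left out ran from -0.030 to 0.018 for mt-Co1, which turned without T29-1 Cre replicate 1 or 2 or WT replicate 2 or 3, from -0.168 to 0.040 for mt-Atp6 (T29-1 Cre replicate 3, WT replicates 3 and 4), from -0.156 to 0.128 for mt-Tq (T29-1 Cre replicate 4, WT replicate 3) and from -0.128 to 0.158 for mt-Nd4l (replicate 4 of either genotype). It ran from -0.093 to 0.029 for mt-Nd4 (T29-1 Cre replicate 1), from -0.114 to 0.298 for mt-Tt and from -0.023 to 0.127 for mt-Tp (WT replicate 1), and from -0.111 to 0.029 for mt-Tw (WT replicate 3). For mt-Co3 it ran from -0.243 to 0.098 and for mt-Nd5 from -0.045 to 0.093, both turning without WT replicate 4. The median of the protein genes ran from -0.08 to -0.01 over all alternatives. The difference in mitochondrial share ran from -0.10 to -0.02 percentage points, and that in the log2 ratio of rRNA to protein genes from -0.12 to 0.02. mt-Atp8 and 14 tRNA genes had too few counts to be tested. Fits of the nuclear copies and lists without WT replicate 4 were added after seeing the data. There Gm28438 turned to 0.218 and Gm28661 to 0.0048, and the median of the genes of mitochondrial transcription and DNA maintenance moved to 0.023.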
